A study of Mus musculus with 19 samples.

Results

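The V segments of the T cell receptor were followed in CD8 and CD4 T cells taken from liver metastases in mice that carried floxed Tet2, with or without a Cre. Genes were taken by name, as every alpha chain segment (symbols starting with Trav) and every beta chain segment (Trbv), with no use of their measured values. The rule found 132 segments among 25639 genes, 110 of the alpha chain in 21 subgroups and 22 of the beta chain in 19 subgroups. All 132 are annotated as T cell receptor V genes in GENCODE M21.

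Each developing T cell joins a V segment to further short segments of the same locus, and the joined exon is then spliced to a constant region, Trac for the alpha chain and Trbc1 or Trbc2 for the beta chain. A mature T cell makes 1 productive beta chain and usually 1 productive alpha chain, so the V segment that a cell transcribes marks its clone and all descendants of that clone. A T cell population with a few large clones therefore has few leading V segments, although many unrelated clones also share a segment, and V segments alone do not identify a clone.

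The cells came from mice of 3 genotypes, all with floxed Tet2, the gene of an enzyme that oxidises methylated cytosine. Tet2fl/fl mice carried no Cre and were the control, Vav1CreTet2KO mice carried a Cre driven by the Vav1 promoter, which is active across blood cells, and Cd4CreTet2KO mice carried a Cre driven by the Cd4 promoter, which is active in developing T cells, so that both CD8 and CD4 lineages are affected. Every mouse had received Venus-AKTPM/LOH colorectal cancer cells in the spleen, and tumours were taken 30 days later. Tumour-infiltrating cells were sorted into CD8 and CD4 T cells and sequenced in bulk, in 10 CD8 libraries (3 Tet2fl/fl, 3 Vav1CreTet2KO and 4 Cd4CreTet2KO) and 9 CD4 libraries (3 of each genotype). The 11 mice behind them include 8 with a library of each cell type, identified by the mouse numbers in the labels.

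Tet2 over the whole gene was 6.57 to 8.06 RPKM in CD8 Tet2fl/fl, 2.93 to 6.28 RPKM in CD8 Vav1CreTet2KO and 3.01 to 7.57 RPKM in CD8 Cd4CreTet2KO libraries. In CD4 cells it was 3.87 to 7.02 RPKM, 2.77 to 5.65 RPKM and 4.53 to 7.28 RPKM in the same order, so only the CD8 Vav1CreTet2KO libraries all lay below their control, and reads of the floxed part were not counted apart. Reads on genes, rebuilt from RPKM for CD8 cells, ranged from 7501026 to 20327809 in 18 libraries and came to 707866 in CD4 Vav1CreTet2KO replicate 1. V segments took 0.0256% to 0.0538% of these reads, or 1242 to 4093 alpha chain reads and 1392 to 3804 beta chain reads in those 18 libraries. The small library held only 131 alpha chain and 234 beta chain reads, and shares of a few percent in it rest on a handful of read pairs. In CD8 libraries Cd4 was at most 7.68 RPKM and Cd8b1 at least 128 RPKM, while in CD4 libraries Cd4 was at least 39.5 RPKM and Cd8b1 at most 7.73 RPKM. In CD8 Vav1CreTet2KO replicate 1, 50.6% of low counts were odd against 13.1% to 30.7% elsewhere, and the part of this in its values was not tested. RPKM is the number of reads scaled to the length of the gene and to the reads of the library, and each share below is a segment's RPKM divided by the summed RPKM of all segments of its chain in the same library. In bulk RNA a higher share can come from more cells or from more RNA per cell, and these cannot be told apart.

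The segments on which the comparison of CD8 with CD4 cells turns, and Trbv3, the leading beta chain segment, have the following sequences, from GENCODE M21 on GRCm38. Each is shown for its last 300 coding bases, up to the last germline base. Capitals mark the bases from the codon of the conserved cysteine to the end, which form the V-encoded start of CDR3, the loop that contacts the peptide. Trav16 lies at chr14:53743104-53743705, Trav16n at chr14:53351028-53351621, Trav4-4-dv10 at chr14:53683647-53684177, Trbv4 at chr6:41059394-41059886, Trbv12-2 at chr6:41118851-41119364 and Trbv3 at chr6:41048290-41048828, all on the plus strand.
Trav16: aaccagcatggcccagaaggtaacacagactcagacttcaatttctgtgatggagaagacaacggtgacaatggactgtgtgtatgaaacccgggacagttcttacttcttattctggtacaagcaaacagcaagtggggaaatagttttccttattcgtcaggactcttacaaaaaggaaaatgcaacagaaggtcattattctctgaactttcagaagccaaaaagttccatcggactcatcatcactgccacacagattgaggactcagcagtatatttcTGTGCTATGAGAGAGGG
Trav16n: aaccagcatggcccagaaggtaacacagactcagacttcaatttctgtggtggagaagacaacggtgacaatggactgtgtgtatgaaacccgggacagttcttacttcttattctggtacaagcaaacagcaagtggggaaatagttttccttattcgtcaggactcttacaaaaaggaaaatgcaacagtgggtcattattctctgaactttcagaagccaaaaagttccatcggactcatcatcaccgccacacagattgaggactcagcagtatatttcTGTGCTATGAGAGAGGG
Trav4-4-dv10: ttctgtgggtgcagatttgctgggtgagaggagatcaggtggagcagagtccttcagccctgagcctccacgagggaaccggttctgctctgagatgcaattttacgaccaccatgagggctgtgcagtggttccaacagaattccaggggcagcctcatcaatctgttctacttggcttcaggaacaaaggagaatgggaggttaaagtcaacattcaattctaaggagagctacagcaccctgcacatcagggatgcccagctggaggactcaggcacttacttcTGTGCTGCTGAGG
Trbv4: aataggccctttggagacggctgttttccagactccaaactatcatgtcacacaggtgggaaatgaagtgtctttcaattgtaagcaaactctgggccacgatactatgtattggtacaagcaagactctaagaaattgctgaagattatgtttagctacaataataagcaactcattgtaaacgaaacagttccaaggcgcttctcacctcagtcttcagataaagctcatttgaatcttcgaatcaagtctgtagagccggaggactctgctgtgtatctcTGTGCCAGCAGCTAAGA
Trbv12-2: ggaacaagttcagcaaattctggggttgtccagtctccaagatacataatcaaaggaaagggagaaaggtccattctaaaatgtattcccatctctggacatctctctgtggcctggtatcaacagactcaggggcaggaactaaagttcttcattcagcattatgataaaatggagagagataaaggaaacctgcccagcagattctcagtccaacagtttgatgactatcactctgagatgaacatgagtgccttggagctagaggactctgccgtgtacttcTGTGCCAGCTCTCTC
Trbv3: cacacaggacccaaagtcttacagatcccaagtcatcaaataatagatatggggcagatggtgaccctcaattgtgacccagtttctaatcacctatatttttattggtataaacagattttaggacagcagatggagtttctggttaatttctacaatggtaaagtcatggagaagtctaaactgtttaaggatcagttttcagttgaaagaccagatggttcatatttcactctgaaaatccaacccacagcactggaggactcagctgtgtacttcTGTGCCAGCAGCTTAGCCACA

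Trav16 and Trav16n ended in the same 17 bases and matched at 97.7% of 353 aligned positions, with 5 substitutions and a gap of 3 bases. Trav4-4-dv10 matched its nearest relative, Trav4d-4, at 97.6% of 331 positions. Trbv12-1 and Trbv12-2 matched at 88.2% of 372 positions. The alpha chain locus of the mouse holds duplicated blocks of segments, which are named with d and n. Of the 110 alpha chain segments, 32 had a copy of identical coding sequence and 52 had a copy of at least 98% identity, while 0 of the 22 beta chain segments had either. Within the coding sequence, reads of identical copies cannot be told apart. The introns of the copies were not compared. Trav3d-3 and Trav3n-3, which are identical, had 1360 and 1298 reads over all libraries, close to an even split, whereas Trav12d-3 had 1235 reads and its identical copy Trav12n-3 had 0. Values of single alpha chain segments within a duplicated group are therefore uncertain.

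Beta chain usage was led by 1 segment in most libraries. Trbv3 had the highest share in 15 of 19 libraries. Its share ranged from 16.4% to 34.8% in the 10 CD8 libraries, with a median of 22.4%, and from 14.1% to 34.6% in the 9 CD4 libraries, with a median of 23.4%. The ranges overlapped almost wholly, and the shares of Trbv3 in the 3 genotypes also overlapped, apart from CD8 Vav1CreTet2KO (22.8%, 30.3% and 34.8%) against CD8 Tet2fl/fl (16.4%, 16.7% and 22.5%). By RPKM these 2 groups overlapped, with 40.4 to 60.4 RPKM against 26.0 to 69.6 RPKM. Behind Trbv3 in CD8 cells came Trbv13-1 with 11.8% ± 8.53 (SD, n = 10), Trbv15 with 11.0% ± 6.04, Trbv13-3 with 8.10% ± 2.85 and Trbv14 with 6.48% ± 11.2. In CD4 cells the next were Trbv13-2 with 11.7% ± 7.27 (SD, n = 9), Trbv2 with 7.59% ± 5.98, Trbv13-1 with 7.52% ± 5.44 and Trbv15 with 7.02% ± 6.06. Neighbours among these segments behind Trbv3 differed, in either cell type, by less than the larger of their SDs between libraries. The lowest mean share was that of Trbv21 in CD8 cells (0.03% ± 0.09) and that of Trbv30 in CD4 cells (0.22% ± 0.52).

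**Figure D1:**
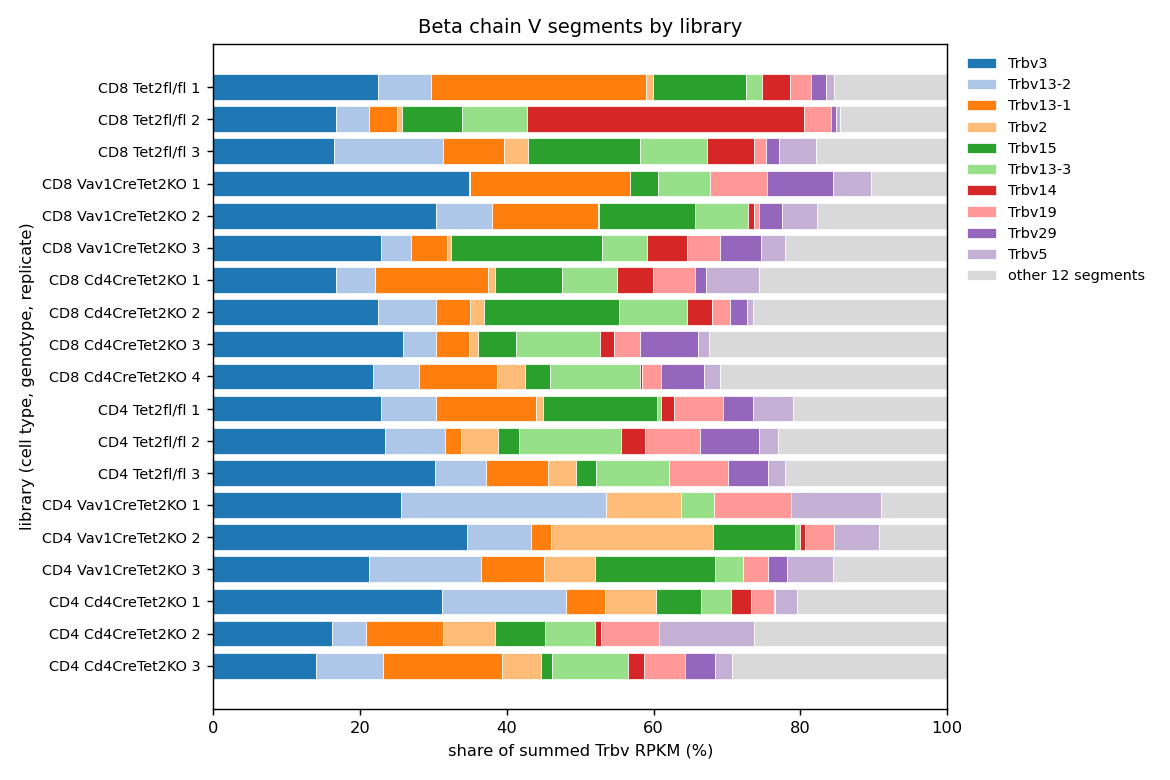
Share of summed Trbv RPKM (percent, horizontal axis) taken by the 10 leading beta chain segments and by all others, in each of 19 libraries (vertical axis; the number after the genotype is the replicate). Trbv3 leads 15 libraries, and Trbv14 takes 37.7% of CD8 Tet2fl/fl replicate 2.

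Alpha chain usage was spread over more segments and its leader changed from library to library. In all, 14 different segments led at least 1 library, against 4 of the beta chain. Over the CD8 libraries the highest mean shares were those of Trav16n with 5.65% ± 3.39 (SD, n = 10), Trav16 with 5.23% ± 2.84, Trav7d-2 with 3.58% ± 1.86, Trav3d-3 with 3.47% ± 1.92 and Trav10 with 3.44% ± 2.93. Over the CD4 libraries they were Trav14d-3-dv8 with 5.77% ± 12.3 (SD, n = 9), Trav7d-2 with 4.53% ± 2.10, Trav4-4-dv10 with 3.94% ± 2.34, Trav12d-3 with 3.53% ± 4.50 and Trav7-4 with 3.41% ± 2.68. The place of Trav14d-3-dv8 rests on CD4 Vav1CreTet2KO replicate 1, where it took 38.4% on 51 reads, and its median over the CD4 libraries was 2.33%. Only 3 alpha chain segments were above 0 in all 19 libraries and 3 were at 0 in all of them, while 5 beta chain segments were above 0 in all and 0 were missing throughout.

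**Figure D2:**
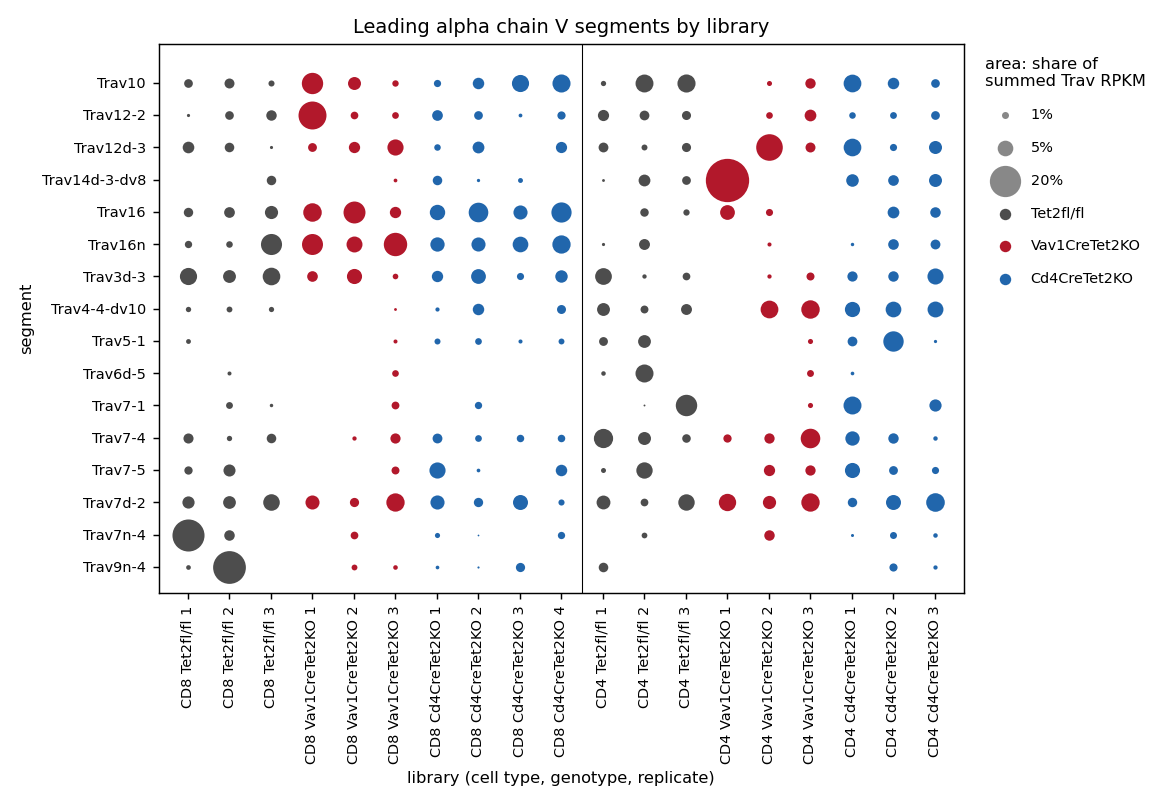
Share of summed Trav RPKM (circle area, percent) of the 16 alpha chain segments that led a library, ranked among the highest 5 of a cell type or passed the test between cell types, by library (horizontal axis; CD8 left of the line, CD4 right). Trav16 and Trav16n are present in all 10 CD8 libraries, and single large circles mark libraries led by 1 segment.

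In 2 CD8 control libraries, the leading alpha chain segment took more than in the third. In CD8 Tet2fl/fl replicate 1, Trav7n-4 took 21.0% of alpha chain RPKM, ahead of Trav10n at 6.24%, and Trbv13-1 took 29.3% of beta chain RPKM, ahead of Trbv3 at 22.5%. In CD8 Tet2fl/fl replicate 2, Trav9n-4 took 22.0%, ahead of Trav12-1 at 9.72%, and Trbv14 took 37.7%, ahead of Trbv3 at 16.7%. In read pairs, Trav7n-4 was 20.3% (95% exact Clopper-Pearson interval 17.7% to 23.1%), Trav9n-4 was 25.8% (23.0% to 28.7%), Trbv13-1 was 27.0% (24.6% to 29.5%) and Trbv14 was 35.5% (32.4% to 38.7%). These intervals cover counting error only, since the reads carry no molecular identifiers.

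Those segments were not shared leaders of the genotype. Trav7n-4 took 2.27% and 0% in the other 2 CD8 control libraries, and Trav9n-4 took 0.45% and 0%. Trbv14 took 3.76% and 6.40% there. Trbv13-1, which is common, took 3.80% and 8.37%. In the CD4 cells of the same animals the alpha chain leaders were not detected at this depth: Trav7n-4 was at 0% in CD4 Tet2fl/fl replicate 1, which allows a share of up to 0.269% (3 read pairs), and Trav9n-4 was at 0% in CD4 Tet2fl/fl replicate 2, which allows up to 0.200%. CD4 Tet2fl/fl replicate 1 was itself led by Trav7-4 at 7.57%, a near copy that matched Trav7n-4 at 97.9% of 341 positions. Trbv14 took 3.30% in CD4 Tet2fl/fl replicate 2, and Trbv13-1 took 13.6% in CD4 Tet2fl/fl replicate 1. The third CD8 control library was led by Trav16n at 9.08% and by Trbv3 at 16.4%, so the 3 control animals did not share these leaders.

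CD8 cells of Cd4CreTet2KO mice used alpha chain segments more evenly than CD8 control cells. Evenness is given as the effective number of segments, the exponential of the Shannon diversity of the shares, which equals the number of segments that would give the same diversity if all were used alike. For the alpha chain it was 29.4, 31.1 and 33.9 in the 3 CD8 Tet2fl/fl libraries and 60.5, 57.6, 47.9 and 46.0 in the 4 CD8 Cd4CreTet2KO libraries. The groups did not overlap. In nats, the Shannon diversity was 3.45 ± 0.07 (SD, n = 3) and 3.96 ± 0.14 (SD, n = 4), a difference of 0.516. The leading segment took 9.08%, 21.0% and 22.0% of alpha chain RPKM in the control libraries and 5.33%, 6.01%, 7.88% and 8.34% in the Cd4CreTet2KO libraries. The 5 leading segments together took 40.5% ± 5.51 and 25.1% ± 3.42. No p-value is given for these scores, which summarise chosen genes.

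The beta chain went the same way by a smaller step. Its effective number was 9.53, 8.78 and 12.2 in CD8 Tet2fl/fl libraries and 14.2, 12.5, 12.8 and 13.6 in CD8 Cd4CreTet2KO libraries, again without overlap. The nearest values, 12.2 and 12.5, lay close. The difference in Shannon diversity was 0.274 nats. The share of the leading beta chain segment did overlap, with 16.4% to 37.7% in control and 16.7% to 25.9% in Cd4CreTet2KO libraries. In all 4 Cd4CreTet2KO libraries that leading segment was Trbv3.

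**Figure D3:**
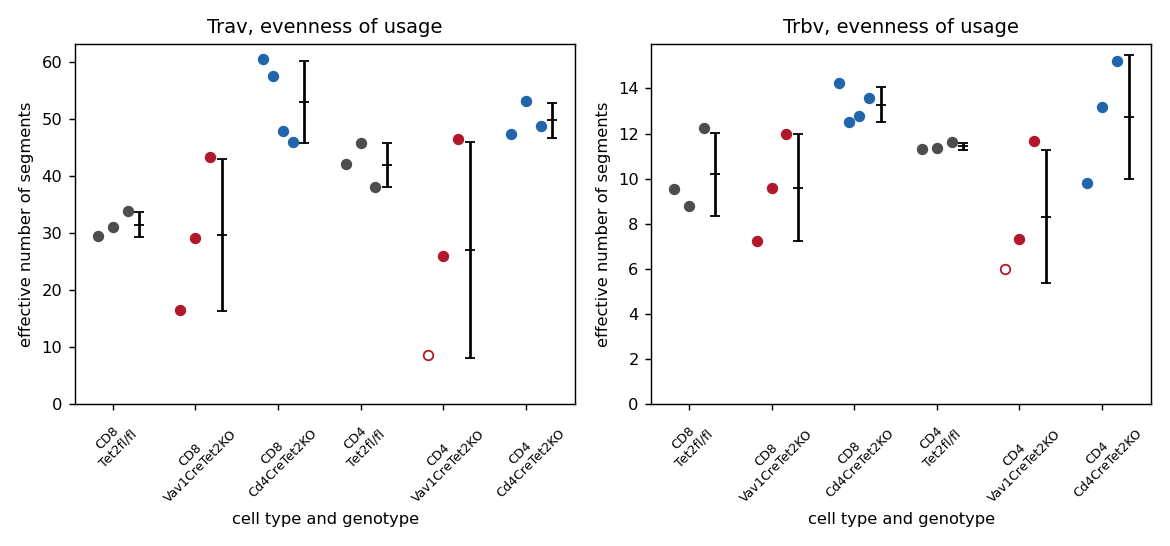
Effective number of alpha chain (left) and beta chain (right) segments per library (points, vertical axis) by cell type and genotype, with mean ± SD beside them; the open point is the library of 131 and 234 V segment reads. The 4 CD8 Cd4CreTet2KO points lie above all CD8 Tet2fl/fl points in both panels.

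Other measures moved with this difference. CD8 Cd4CreTet2KO libraries were deeper, with 13272000 to 20327809 reads on genes against 8189300 to 12519013 in control. When every CD8 library was rarefied to 1242 alpha chain reads, 66.5 to 86.4 segments were expected in Cd4CreTet2KO and 58.4 to 69.2 in control libraries, and these ranges overlapped. The inverse Simpson index of the read counts is little affected by rare segments. For the alpha chain it was 31.6 to 46.4 in Cd4CreTet2KO and 11.7 to 25.8 in control libraries, without overlap. For the beta chain it was 8.62 to 11.6 and 5.59 to 9.96 in that order, and the groups overlapped. Summed alpha chain RPKM was lower in Cd4CreTet2KO libraries, at 94.2 to 107 against 140 to 190. It also lay below control in CD8 Vav1CreTet2KO libraries, at 103 to 137.

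Markers of other cells also moved. The 10 macrophage and monocyte markers summed to 257 and 137 RPKM in CD8 Cd4CreTet2KO replicates 1 and 2 and to 5.46 and 8.58 RPKM in replicates 3 and 4, against 9.38 to 20.03 RPKM in control. Of these markers, 1 was at 0 in all 3 CD8 control libraries, and each was above 0 in at least 1 of the 4 CD8 Cd4CreTet2KO libraries. Replicates 1 and 2 had the highest alpha chain evenness, and without both of them the difference in Shannon diversity was 0.401 nats. The 7 dendritic markers summed to 174 to 1366 RPKM in Cd4CreTet2KO and 24.2 to 190 RPKM in control libraries, and the 6 B cell markers to 10.8 to 41.0 RPKM against 3.50 to 8.89 RPKM. These shifts were not particular to Cd4CreTet2KO. CD8 Vav1CreTet2KO libraries had sums of 492 to 1745 RPKM for dendritic and 11.4 to 22.3 RPKM for B cell markers. There 4 of the 7 dendritic markers were called higher (limma), where 1.45% of all genes were called. The part of such markers in the Cd4CreTet2KO difference was not tested, beyond the value without replicates 1 and 2.

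CD4 cells of Cd4CreTet2KO mice differed from control in the same direction by less. The alpha chain effective number was 42.1, 45.8 and 38.0 in CD4 Tet2fl/fl libraries and 47.3, 53.1 and 48.8 in CD4 Cd4CreTet2KO libraries. These did not overlap, but the difference of 0.172 nats in Shannon diversity was 0.0087 when segments under 1% were left out, and the groups then overlapped. From reads in place of RPKM the difference was 0.128 nats, and the groups overlapped as well. For the beta chain the groups overlapped, with 11.3, 11.4 and 11.6 in control and 9.80, 13.2 and 15.2 in Cd4CreTet2KO libraries. The leading alpha chain segment took 6.63% to 9.38% in control and 6.60% to 8.49% in Cd4CreTet2KO libraries, which overlapped. Whether the CD8 and CD4 differences themselves differ was not tested.

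Vav1CreTet2KO libraries varied widely among themselves in evenness. The alpha chain effective number was 16.6, 29.0 and 43.3 in CD8 and 8.56, 26.0 and 46.4 in CD4 libraries. For the beta chain it was 7.22, 9.60 and 12.0 in CD8 and 5.98, 7.31 and 11.7 in CD4 libraries. Each of these ranges overlapped the control range of its cell type. For the CD4 beta chain the mean was 8.31 ± 2.97 (SD, n = 3), against 11.4 ± 0.16 (SD, n = 3) in control. The mouse of replicate 1 had the lowest and that of replicate 3 the highest value of the genotype in both cell types and for both chains, an order noticed after the values were seen. The CD8 library of the first of these mice held 26 alpha chain segments above 0, the fewest of any library of ordinary depth, and it is the one with the odd counts described above, while its CD4 library is the one with 131 alpha chain reads. In CD4 Vav1CreTet2KO replicate 2, Trav12d-3 (14.5%) and Trav14n-3 (13.5%) led the alpha chain, and Trbv3 (34.6%) and Trbv2 (22.0%) led the beta chain.

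No V segment passed the test for a difference in level between genotypes. In CD8 cells, limma with Benjamini-Hochberg adjustment over all genes called 0 of 70 tested segments for Vav1CreTet2KO against Tet2fl/fl, where 1.45% of 10224 genes were called, and 0 of 70 for Cd4CreTet2KO against Tet2fl/fl, where 0.509% were called. In CD4 cells, edgeR's quasi-likelihood test called 0 of 102 segments for Vav1CreTet2KO, where 0.00738% of 13554 genes were called, and 0 of 102 for Cd4CreTet2KO, where 0.0295% were called. At an unadjusted p under 0.05 the counts of segments were 11 of 70, 7 of 70, 9 of 102 and 3 of 102 in that order, where 17.3%, 12.4%, 11.9% and 2.5% of all genes tested were under it. The median log2 fold change of the segments was -0.24 in CD8 Vav1CreTet2KO, -0.26 in CD8 Cd4CreTet2KO, -0.43 in CD4 Vav1CreTet2KO and -0.0035 in CD4 Cd4CreTet2KO, beside -0.11, -0.15, -0.16 and 0.0030 over all genes tested.

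With DESeq2 on reads, 2 segments were called lower in CD8 Vav1CreTet2KO cells (Trav13n-4 and Trbv17), 3 were called in CD4 Vav1CreTet2KO cells (Trav3-3, Trav8-1 and Trbv2), 1 in CD4 Cd4CreTet2KO cells (Trav6-5) and 0 in CD8 Cd4CreTet2KO cells. Of the genes with an adjusted p, DESeq2 called 7.02%, 4.43%, 0.211% and 4.28% in these comparisons, and of the segments 83, 89, 118 and 100 had an adjusted p. Leaving out CD8 Vav1CreTet2KO replicate 3 gave 3 calls among 65 segments in limma (Trav5-4, Trbv14 and Trbv26), leaving out CD8 Tet2fl/fl replicate 3 gave 1 among 66 (Trav16n), and leaving out CD4 Vav1CreTet2KO replicate 3 gave 1 among 109 in edgeR (Trav3-3). In those 3 fits 1.47%, 0.608% and 5.68% of all genes were called. These segments are named because their values changed with the setting and were chosen after the values were seen.

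Trbv14, the leader of 1 control library, had the smallest p of all segments in CD8 Cd4CreTet2KO cells and missed the threshold in both knockouts. Its level was 11.6 RPKM, 58.5 RPKM and 16.2 RPKM in CD8 Tet2fl/fl libraries, 0 RPKM, 1.63 RPKM and 9.71 RPKM in CD8 Vav1CreTet2KO libraries and 5.48 RPKM, 4.34 RPKM, 3.06 RPKM and 0.416 RPKM in CD8 Cd4CreTet2KO libraries. By RPKM both knockout groups lay below control without overlap. As a share of beta chain RPKM both overlapped control, with 3.76% to 37.7% in Tet2fl/fl, 0% to 5.48% in Vav1CreTet2KO and 0.324% to 5.03% in Cd4CreTet2KO libraries. Summed beta chain RPKM was 239 ± 78.2 (SD, n = 3), 180 ± 17.97 (SD, n = 3) and 132 ± 23.3 (SD, n = 4) in that order. In limma the log2 fold change on the log2(RPKM + 1) scale was -2.95 (SE 0.81, adjusted p = 0.0951) for Vav1CreTet2KO and -2.64 (SE 0.76, adjusted p = 0.146) for Cd4CreTet2KO, with the same 3 control libraries in both. Across all genes tested, 12.9% were lower without overlap in CD8 Vav1CreTet2KO and 14.0% in CD8 Cd4CreTet2KO cells, against 5 and 2 of the 70 segments. In 0.453% of 9494 genes, and in 3 of 60 segments (Trbv2, Trbv29 and Trav5-4), the Vav1CreTet2KO libraries lay apart from control in opposite directions in CD8 and CD4 cells.

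Single segments were also compared between the cell types. Over the 16 libraries of the 8 animals that gave both, limma with the animal as a block called 5 of 98 tested segments, 4 higher and 1 lower in CD8 cells, where 3.24% of 10846 genes were called. Trav16 and Trav16n, both of the small Trav16 subgroup, and the beta chain segments Trbv4 and Trbv12-2 were higher in CD8 cells. Trav4-4-dv10, which can also be joined to the delta chain, was higher in CD4 cells. The share of segments called was near that of all genes, and 22 of 98 segments had an unadjusted p under 0.05, against 15.2% of all genes. The median log2 fold change was -0.05 over the segments and 0.07 over all genes.

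Trav16 was 2.68 to 13.5 RPKM in the 10 CD8 libraries, with a median of 4.88, and 0 to 5.39 RPKM in the 9 CD4 libraries, with a median of 2.00 and 3 libraries at 0. It was higher in CD8 cells in 8 of 8 animals, with a log2 fold change of 1.54 (limma, SE 0.27, adjusted p = 0.00706). Trav16n was 1.24 to 13.3 RPKM in CD8 cells, with a median of 6.15, and 0 to 3.83 RPKM in CD4 cells, with a median of 0.44. The ranges of both segments overlapped between cell types, although within animals Trav16n was higher in CD8 cells in 7 of 8. Its log2 fold change was 2.08 (limma, SE 0.48, adjusted p = 0.0366). This call was lost in 6 of the 8 limma fits that each left out 1 animal, with adjusted p up to 0.116. The 3 segments of the Trav16 subgroup together took 12.5% ± 4.85 (SD, n = 10) of alpha chain RPKM in CD8 and 3.03% ± 1.85 (SD, n = 9) in CD4 libraries.

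Trbv4 was 1.13 to 8.26 RPKM in CD8 libraries, with a median of 4.48, and 0 to 3.45 RPKM in CD4 libraries, with a median of 0.54. It was higher in CD8 cells in 8 of 8 animals by a log2 fold change of 1.76 (limma, SE 0.33, adjusted p = 0.0103). As a share it took 2.89% ± 1.67 in CD8 and 0.82% ± 1.02 in CD4 cells of the 8 animals (SD, n = 8). Trbv12-2 was 1.90 to 10.7 RPKM in CD8 and 0 to 4.76 RPKM in CD4 libraries, with medians of 5.96 and 1.21. Its RPKM was higher in CD8 cells in 8 of 8 animals, and the log2 fold change was 1.61 (limma, SE 0.29, adjusted p = 0.00778). Trbv12-1, its neighbour in sequence, had a log2 fold change of 1.23 and missed the threshold (limma, SE 0.31, adjusted p = 0.0527).

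Trav4-4-dv10 ran the other way. It was 0 to 2.77 RPKM in CD8 libraries, with a median of 0.58 and 3 at 0, and 0 to 12.5 RPKM in CD4 libraries, with a median of 7.15 and 1 at 0. The CD4 library at 0 was CD4 Vav1CreTet2KO replicate 1. It was lower in CD8 cells in 7 of 8 animals and at 0 in both cell types of the mouse of Vav1CreTet2KO replicate 1, with a log2 fold change of -1.95 (limma, SE 0.39, adjusted p = 0.0165). The delta constant gene Trdc was at most 0.540 RPKM in any CD4 library.

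**Figure D4:**
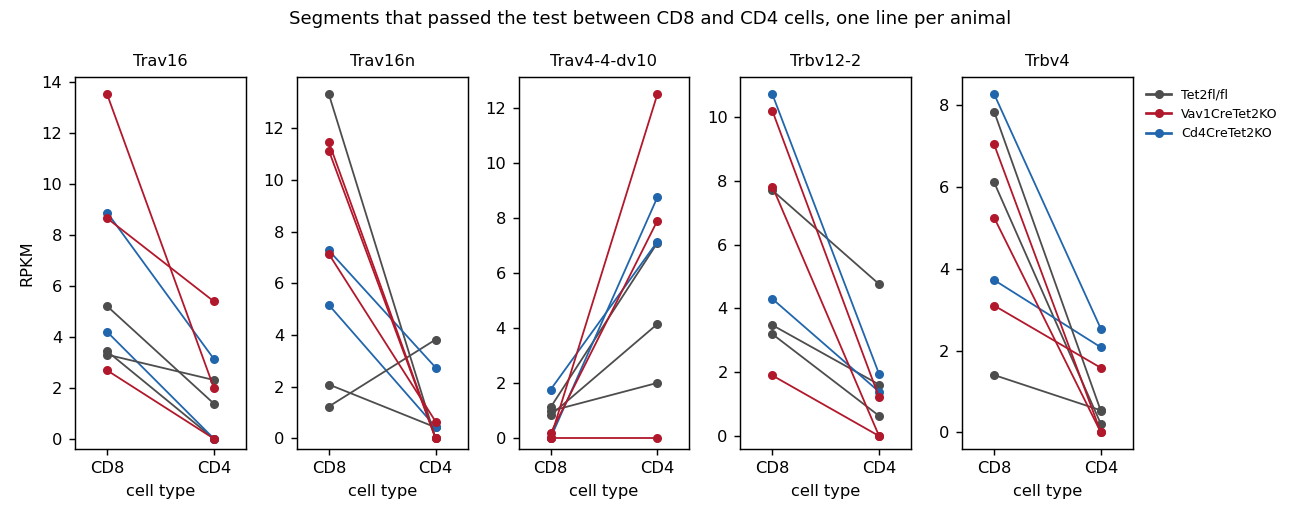
RPKM (vertical axis, own scale per panel) of the 5 segments that passed the limma test between CD8 and CD4 cells, with 1 line per animal (8 animals) coloured by genotype. Trav16, Trbv12-2 and Trbv4 fall from CD8 to CD4 in 8 of 8 animals, Trav16n in 7, and Trav4-4-dv10 rises in 7.

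The calls changed with the setting. With edgeR on the reads, 0 of 55 tested segments passed, where 2.69% of all genes were called, although the same 5 segments kept their directions with log2 fold changes of 3.00 (Trav16), 3.72 (Trav16n), 2.96 (Trbv4), 2.54 (Trbv12-2) and -3.78 (Trav4-4-dv10), and adjusted p from 0.219 to 0.299. In that fit 9 of 55 segments and 12.1% of all genes had an unadjusted p under 0.05. With a pseudocount of 0.1, or with no filter, 3 passed in limma (Trav16, Trbv4 and Trbv12-2), where 2.5% and 0.865% of all genes were called, and without the mouse of Vav1CreTet2KO replicate 1, 9 of 97 did, where 6.1% were called.

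Across all genes tested, 3.08% were higher by RPKM in CD8 cells in 8 of 8 animals and 1.94% lower. Of the segments, 4 of 98 were higher in all 8 animals (Trbv4, Trav16, Trbv12-2 and Trbv13-3) and 0 of 98 were lower. By share only Trbv4 and Trav16 were higher in all 8, Trbv12-2 in 7 and Trbv13-3 in 6. In 7 of 8 animals, 3 segments were higher by share, Trav16n, Trbv12-1 and Trbv12-2. Lower by share in 7 of 8 animals were 5 segments, Trav4-4-dv10, Trav7-6, Trbv2, Trbv5 and Trbv13-2. Shares are defined only for segments, so no figure over all genes stands beside these counts. Trbv2 took 0% to 3.79% of beta chain RPKM in CD8 and 0.959% to 22.0% in CD4 libraries. Its log2 fold change of -1.81 in RPKM did not pass (limma, SE 0.62, adjusted p = 0.169). Among subgroups, Trav14 took 5.45% ± 4.01 (SD, n = 10) in CD8 and 14.2% ± 12.7 (SD, n = 9) in CD4 libraries, and Trav7 took 14.3% ± 7.25 and 20.4% ± 5.71. The CD4 mean of Trav14 leans on CD4 Vav1CreTet2KO replicate 1, where it took 46.4% in a library of 131 alpha chain reads.

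Evenness did not separate the cell types. Within the 8 animals the alpha chain Shannon diversity of CD8 minus CD4 cells was -0.03 ± 0.33 nats (SD, n = 8), higher in CD8 cells in 3 and lower in 5. For the beta chain it was 0.03 ± 0.20 nats, higher in 5 and lower in 3. All 3 Tet2fl/fl animals had less even alpha chain usage in CD8 than in CD4 cells, by 0.357, 0.386 and 0.115 nats. The 2 Cd4CreTet2KO animals with both cell types differed by 0.012 and -0.060 nats, and the 3 Vav1CreTet2KO animals by 0.660, 0.110 and -0.070 nats. For the beta chain the Tet2fl/fl animals did not share a direction, with -0.170, -0.259 and 0.053 nats. This split by genotype was not tested.

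The leading segment often differed between the cell types of an animal. By segment name, the alpha chain leader matched in 0 of 8 animals and the beta chain leader in 4 of 8, each time Trbv3. The alpha chain leaders of the mouse of Tet2fl/fl replicate 1, Trav7n-4 and Trav7-4, are near copies. Overlap, the summed smaller share of each segment in a pair of libraries, had a median of 39.0% for the alpha chain of CD8 and CD4 cells of the same animal and 33.9% for those of different animals. For the beta chain the medians were 65.2% and 61.6%. The ranges overlapped in both cases, from 17.5% to 48.6% within and from 9.46% to 47.1% between animals for the alpha chain. Among CD8 libraries of 1 genotype, the alpha chain overlap was 49.7% to 60.4% in the 6 pairs of Cd4CreTet2KO libraries and 32.1% to 41.1% in the 3 pairs of Tet2fl/fl libraries.

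Segments of innate-like T cells were rare. Trav11, which invariant NKT cells join to Traj18, took 0% to 0.61% of alpha chain RPKM in CD8 and 0% to 0.80% in CD4 libraries. Its near copy Trav11d took at most 0.84% and 1.61%. Both CD4 maxima came from CD4 Vav1CreTet2KO replicate 1, where they rest on 1 and 2 of 131 alpha chain reads. Traj18 itself was at 0 RPKM in 18 of 19 libraries, and Traj33 was at 0 in every CD8 library. These joined segments are short, so 0 RPKM says little about the number of such cells. Trav1, which MAIT cells join to Traj33, was at 0 in 8 of 10 CD8 libraries, with 2.54% in CD8 Cd4CreTet2KO replicate 1 and 0.225% in replicate 2, and reached 0.913% in CD4 libraries. The beta chain segments paired with these receptors (Trbv13-2, Trbv29 and Trbv1 for NKT cells, Trbv19, Trbv13-2 and Trbv13-3 for MAIT cells) are also used by conventional T cells. In each of the 5 comparisons 0 tested members of the NKT (3 to 5) and MAIT (3 to 4) segment lists passed. Between genotypes no V segment passed at all, and 0.00738% to 3.24% of all genes were called over these comparisons. With so few members this count says little about these cells. Of 4 tested members of a separate list of NKT and MAIT genes, 2 were called higher in CD8 than in CD4 cells (limma). In that comparison 3.24% of all genes were called.

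Of the 7 constant region and CD3 genes (Trac, Trbc1, Trbc2, Cd3d, Cd3e, Cd3g and Cd247), 0 passed in any of the 5 comparisons. Over these comparisons 0.00738% to 3.24% of all genes were called, so 0 of 7 says little. Trac, the alpha chain constant region, was 62.1 RPKM, 49.3 RPKM and 53.8 RPKM in CD8 Tet2fl/fl libraries and 31.7 RPKM, 31.5 RPKM, 28.1 RPKM and 34.6 RPKM in CD8 Cd4CreTet2KO libraries. CD8 Vav1CreTet2KO libraries had 26.0 RPKM, 46.2 RPKM and 40.3 RPKM. Both knockout groups lay below control without overlap, as did 14.0% of all genes in Cd4CreTet2KO and 12.9% in Vav1CreTet2KO. For Cd4CreTet2KO the log2 fold change of -0.78 did not pass (limma, SE 0.24, adjusted p = 0.164). The median log2 fold change of the 7 genes in that comparison was -0.54 beside -0.15 over all genes. Between the cell types, where 3.24% of all genes were called, 1 of 5 tested genes of gamma delta T cells passed. This was Trgc2, a gamma chain constant gene, which was higher in CD8 cells by a log2 fold change of 3.12 (limma, SE 0.27, adjusted p = 3.96e-05), with 7.86 to 27.0 RPKM in CD8 and 0 to 2.91 RPKM in CD4 libraries. Trdc was at most 5.87 RPKM in CD8 libraries. In the same comparison, with its 3.24% of all genes called, 3 of 4 tested NK cell markers and 2 of 7 dendritic markers were higher in CD8 cells. Lower there were 1 of 8 macrophage and monocyte markers and 1 of 2 B cell markers. Klrb1c belongs both to the NK cell markers and to the list of NKT and MAIT genes. The part of these markers in the segment values was not tested.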

How the data were processed

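Bulk RNA of sorted tumour-infiltrating T cells was sequenced as read pairs (SMARTer Stranded Total RNA Pico libraries, per the labels' protocols). The authors deposited 1 table per cell type. The CD4 table gives counts of reads per gene and RPKM, and the CD8 table RPKM only, per the file headers; 18 other per-sample columns were not used. The submitters' processing notes name GRCm38 and mm10 as builds. The aligner and counter: not given in the sources used here. RPKM was scaled within each library: counts, RPKM and gene length of the CD4 table gave 1 total per library, and all 134906 CD8 values above 0 with a known length came out within 0.01 of a whole read. For V segments the length was the whole gene span, intron included. Coordinates of the tables differ from GENCODE M21, whose GRCm38 positions are printed.

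CD4 counts were tested with edgeR 4.0.16 (filterByExpr with minimum count 10 and total 15, TMM, quasi-likelihood, 9 libraries). As planned for a table of RPKM only, CD8 values were tested with limma 3.58.1 with trend on log2(RPKM + 1). Genes had to reach 1 RPKM in 3 or more of the 10 CD8 libraries. Count models on the recovered CD8 reads were run as alternatives. CD8 was compared with CD4 in limma with the animal as a block (16 libraries), since animal numbers in the labels tie the libraries; correlations of deviations within the 8 animals were -0.06 to 0.33. P-values were adjusted over all genes (Benjamini-Hochberg, 0.05), in R 4.3.3. Simulated data were used only for fits of Vav1CreTet2KO against Tet2fl/fl within each cell type, not for the fit between cell types. Shares, top share and Shannon diversity were computed per library and given no p-value. Replicates were separate animals, per the labels. Named segments were the 5 highest by mean share per cell type and chain, leaders of any library, called segments, and NKT and MAIT lists. Any other segment was named after its values were seen. The members and lists were chosen with earlier results of these data known. Alternatives were another pseudocount, no filter, DESeq2 1.42.0, edgeR on recovered reads, reads in place of RPKM, subgroups, rare segments left out, Renyi entropy of read counts, summed copies, no block and each library or animal left out.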

Additional observations from a re-analysis of the deposited data

Results flagged for a closer look

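In the 4 CD8 Cd4CreTet2KO libraries, 3 segments each had 1 library far from the other 3, out of 37 such checks. Chance flags about 1 in 20 only where values are normally distributed. The flagged shares include values of 0, so that rate does not hold here and the number of flags cannot be judged against it. Trav1 took 2.54% of alpha chain RPKM in replicate 1 and 0% to 0.225% in the others. Trav7-1 took 1.09% in replicate 2 and 0% in the others. Trav9n-4 took 1.74% in replicate 3 and 0% to 0.281% in the others. Replicates 1 and 2 are those with macrophage markers.

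For Vav1CreTet2KO against Tet2fl/fl, 2 beta chain segments moved opposite ways in CD8 and CD4 cells, with the shares of every knockout library on 1 side of every control library in each cell type. By RPKM the same held for 3 of 60 segments tested in both cell types, these and Trav5-4, and for 0.453% of 9494 genes. The mean share of Trbv2 was lower by 1.45 percentage points in CD8 cells (a difference of -1.454) and higher by 9.79 in CD4 cells. The mean share of Trbv29 was higher by 4.38 percentage points in CD8 cells and differed by -5.03 in CD4 cells. These differences between cell types were not tested.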

How the results depend on the processing

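Shares rest on 1242 to 4093 alpha chain reads, and on 131 in 1 library. Segments called between CD8 and CD4 cells numbered 5, and 3 with a pseudocount of 0.1, 3 with no filter, 0 with edgeR on reads and 8 with no replicate block over all 19 libraries, where the pairing by animal is dropped; leaving out 1 animal gave 4 to 9 (9 without the mouse of Vav1CreTet2KO replicate 1). In those leave-outs Trav16n lost its call in 6 of 8 and Trav4-4-dv10 in 1. Between genotypes, 0 became 2 (CD8 Vav1CreTet2KO), 3 (CD4 Vav1CreTet2KO) and 1 (CD4 Cd4CreTet2KO) with DESeq2, and 0 to 3, 0 to 1 and 0 to 0 with 1 library left out. Replicate numbers did not pair genotypes (correlations up to 0.104). The causes were not tested.

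Alpha chain Shannon diversity in CD8 Cd4CreTet2KO against control differed by 0.516 nats, by 0.271 over subgroups, 0.842 as Renyi entropy of read counts (0.53 as Shannon diversity of reads) and 0.401 without both libraries with macrophage markers. In CD4 Cd4CreTet2KO it differed by 0.172, by 0.0836 over subgroups, 0.0087 without segments under 1% and 0.0170 as Renyi entropy of read counts (0.128 as Shannon diversity of reads). The alpha chain top share in CD4 Cd4CreTet2KO differed by -0.469 percentage points, by 1.86 in reads, -3.35 over subgroups and 1.57 with copies summed; the beta chain top share there by -4.28, and 3.87 over subgroups.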
